A study of Mus musculus with 9 samples.

Results

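The nuclear genes of respiratory complex I were examined in gastrocnemius muscle, a mostly fast-fibred muscle of the calf, by RNA sequencing of mice. The members were the genes whose symbol is Nduf followed by a, b, c, s or v and a number, together with Ndufab1, with at least 30 counts summed over all libraries. They numbered 38 of the 56791 genes in the table. Each of the 38 passed the filter on low counts and was tested.

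The 9 libraries fell into 3 groups of 3. Aged mice received ginkgolide B (GB) at 12 mg per kg of body weight, aged mice received vehicle, and young mice received vehicle. Dosing was by oral gavage every day for 2 months, and the vehicle was saline. The titles of the vehicle libraries hold 23M for aged mice and 3M for young mice, and those of the GB libraries hold neither. Strain and genotype are not in the labels. No label says whether replicates were different animals, and p-values here cover only the spread among the libraries, which could be technical. GB is a lactone from ginkgo leaves known to block the receptor for platelet activating factor.

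Complex I takes electrons from NADH, passes them along iron-sulphur clusters to ubiquinone, and pumps protons across the inner mitochondrial membrane. It is the largest complex of the respiratory chain and a main entry point for electrons in muscle. Its N module oxidises NADH, its Q module reduces ubiquinone, and its membrane arm, with a proximal and a distal part, moves the protons. Core subunits carry out the chemistry and are conserved from bacteria, and accessory subunits surround them and are needed for assembly or stability. The core of the N and Q modules is nuclear, with Ndufv1, Ndufv2 and Ndufs1 in the N module and Ndufs3, Ndufs7 and Ndufs8 among the genes of the Q module. The core of the membrane arm is encoded in mitochondrial DNA. Of the 38 members, 7 were core subunits and 30 were accessory. The accessory genes divided into 9 of the N and Q modules, 9 of the proximal membrane arm and 12 of the distal membrane arm. The remaining member, Ndufa4, keeps a complex I symbol but is now assigned to cytochrome c oxidase, which is complex IV.

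The members lay on 16 chromosomes. RefSeq promoter windows of build GRCm38.p6, which run from 250 bases before a gene's start to 50 after it, were matched by symbol for 34 of the 38. A motif of the transcription factor YY1, AAGATGGCG, was found on either strand in 14.7% of these windows, in 1.49% of all 27025 promoter windows and in 2.85% of the 12086 windows of genes tested. It lay in the windows of Ndufa9, Ndufc1, Ndufs4, Ndufs6 and Ndufs7, in each in the printed direction and starting between base 273 and base 286 of the window. The motif of NRF1, a regulator of respiratory chain genes, was searched as GCGCANGCG and was found in 23.5% of member windows, 6.47% of all windows and 12.2% of windows of genes tested. The ETS motif CCGGAAG was found in 11.8% of member windows, 9.12% of all and 16.4% of those of genes tested. The motif of oestrogen-related receptors, TCAAGGTCA, was in 0 of 34 member windows, in 0.407% of all windows and in 0.273% of those of genes tested. Its core AAGGTCA, which every TCAAGGTCA also holds, was in 8.82% of member windows, 4.66% of all and 3.28% of those of genes tested. These matches are descriptions of letters, not of binding.

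Windows of 3 genes are shown because they share the YY1 letters at nearly the same place while their genes differed under GB: Ndufc1 had the largest rise of the members, Ndufa9 fell, and Ndufs6 carries an NRF1 match as well. Capitals mark the YY1 motif, and in Ndufs6 also the NRF1 motif, which there lies on the other strand. The windows are chr3:51408906-51409205 for Ndufc1, chr6:126849095-126849394 for Ndufa9 and chr13:73328433-73328732 for Ndufs6, all on the minus strand and printed 5′ to 3′ in the direction of the gene.
Ndufc1: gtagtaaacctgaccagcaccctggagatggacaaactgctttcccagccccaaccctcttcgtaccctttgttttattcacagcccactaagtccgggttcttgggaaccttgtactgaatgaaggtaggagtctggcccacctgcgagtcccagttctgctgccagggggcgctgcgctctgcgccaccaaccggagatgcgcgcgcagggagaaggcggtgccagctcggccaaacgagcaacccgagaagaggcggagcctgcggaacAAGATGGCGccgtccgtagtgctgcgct
Ndufa9: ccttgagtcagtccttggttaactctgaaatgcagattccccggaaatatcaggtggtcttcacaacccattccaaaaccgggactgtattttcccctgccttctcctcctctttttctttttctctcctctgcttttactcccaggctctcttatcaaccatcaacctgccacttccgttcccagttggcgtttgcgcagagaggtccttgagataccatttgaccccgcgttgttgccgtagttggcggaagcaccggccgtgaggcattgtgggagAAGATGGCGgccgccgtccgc
Ndufs6: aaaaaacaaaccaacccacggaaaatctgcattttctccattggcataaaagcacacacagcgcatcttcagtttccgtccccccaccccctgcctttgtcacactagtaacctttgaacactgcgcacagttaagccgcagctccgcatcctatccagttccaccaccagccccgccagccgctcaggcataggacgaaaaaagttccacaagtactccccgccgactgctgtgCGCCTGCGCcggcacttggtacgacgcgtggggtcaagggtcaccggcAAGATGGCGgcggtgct

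Library depth ran from 39478427 to 44294097 total counts with GB, from 52068522 to 54095457 for aged vehicle and from 51543383 to 61680520 for young vehicle. Mitochondrially encoded genes took 24.33 to 26.08% of counts under GB, 13.86 to 15.31% under aged vehicle and 8.599 to 10.23% under young vehicle. Levels are given as CPM, which are counts scaled by library size and TMM factor. These factors were 0.7525 to 0.7972 for GB and 1.092 to 1.171 for the 6 vehicle libraries. Skeletal muscle markers summed to 171500 to 194800 CPM with GB, 103500 to 111600 CPM in aged vehicle and 126400 to 137900 CPM in young vehicle.

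The members together took 0.8349 to 0.9453% of counts in the GB libraries, 0.643 to 0.7249% in the aged vehicle libraries and 0.5397 to 0.6088% in the young vehicle libraries. Their summed level was 11610 ± 582.9 CPM with GB, 6080 ± 172.3 CPM in aged vehicle and 5080 ± 333 CPM in young vehicle (SD, n = 3 each). The ranges of the 3 groups did not overlap on either scale. In bulk muscle, fewer cells of a type and less RNA per cell cannot be told apart.

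Levels between genes were compared per kilobase of the principal annotated transcript. In both vehicle groups Ndufa4 was the highest of the members, with 630.5 CPM per kilobase in aged and 444.7 in young muscle. With GB the order was led by Ndufa2 at 941.1 CPM per kilobase, Ndufa6 at 881.5 and Ndufa3 at 844.2, all of them short accessory genes, and Ndufa4 stood at 662.8. The lowest level in every group was that of Ndufb2, with 5.027 CPM per kilobase with GB, 1.545 in aged vehicle and 1.288 in young vehicle. Its principal transcript in the annotation, 4371 bases, is the longest of the members, so its value per length is less certain than the others.

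**Figure D1:**
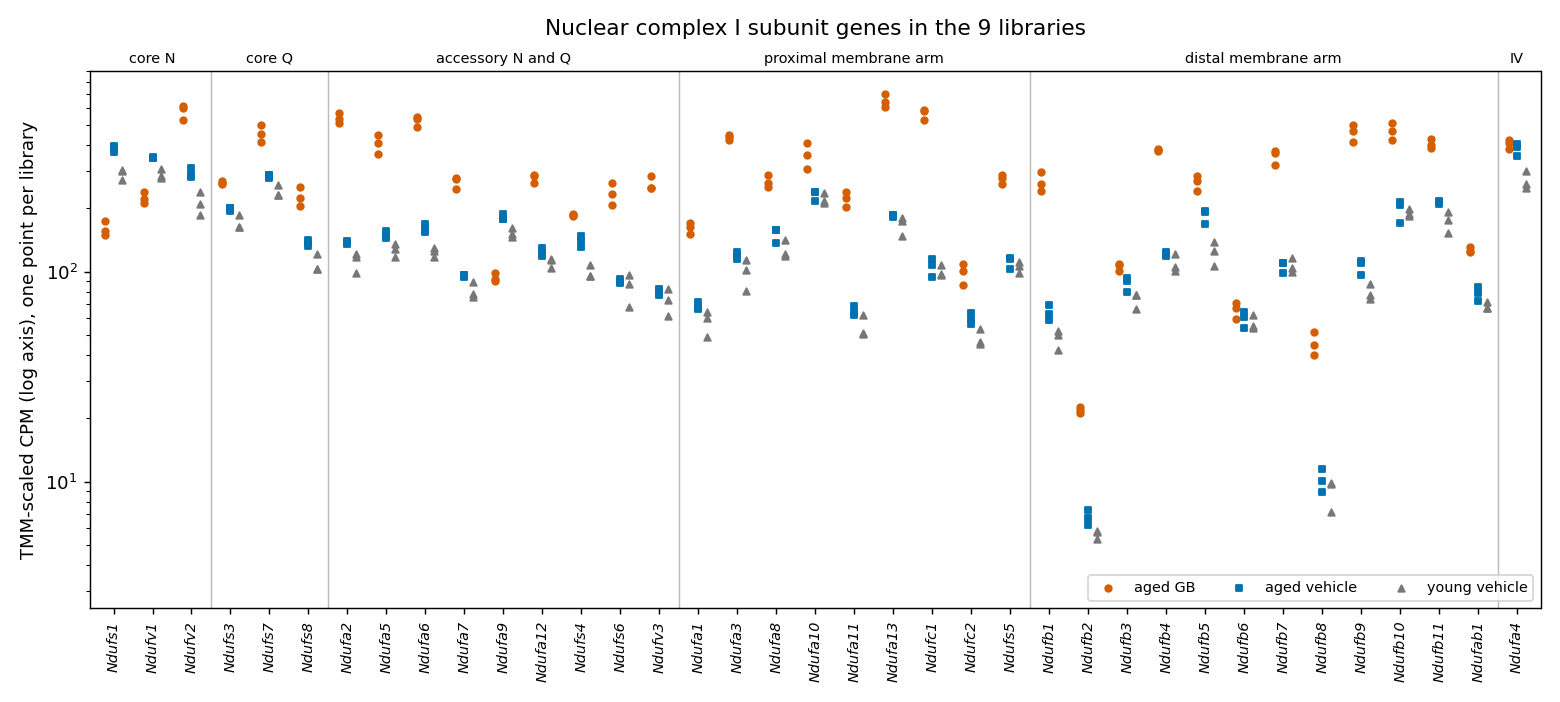
TMM-scaled CPM on a log axis for 37 nuclear complex I genes, grouped by place in the complex, with a point for each of the 3 aged GB, 3 aged vehicle and 3 young vehicle libraries. Most accessory genes sit higher in the GB libraries than in both vehicle groups, and Ndufs1, Ndufv1 and Ndufa9 sit lower.

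The first comparison asked what age changed, aged vehicle over young vehicle. With edgeR's quasi-likelihood test, 9 of the 38 members rose and 0 fell, where 8.6% of all genes tested were called, 4.32% higher and 4.28% lower. All 38 fitted changes were above 0, with a median log2 fold change of 0.25 and a range of 0.00 to 0.59, against a median of -0.00 over all genes tested. At an unadjusted p under 0.05 there were 24 members, and DESeq2 and limma-voom each called 13 higher and 0 lower. In 27 members all 3 aged vehicle libraries lay above all 3 young vehicle libraries, an arrangement found in 17.5% of genes tested. The reverse arrangement was found in 16.9%, so that 34.4% of genes tested had groups without overlap, and no member was lower in all aged libraries.

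In the N module core, all 3 genes rose with age. Ndufs1, whose product holds several of the iron-sulphur clusters, had 396.3, 371.4 and 393.7 CPM in aged vehicle against 274.2, 302 and 305.1 CPM in young vehicle. Every aged library was above every young one, and the log2 fold change was 0.40 (SE 0.0798, adjusted p = 0.008661). Ndufv2, which carries another iron-sulphur cluster, had 289.2, 281.8 and 310.7 CPM in aged vehicle against 186.3, 240.1 and 210.5 CPM in young vehicle. The young libraries were the more spread of the 2 groups, and the change was 0.47 (SE 0.0988, adjusted p = 0.01129). Ndufv1, the subunit that binds NADH and FMN, had 350.4, 346.8 and 347.8 CPM in aged vehicle against 284.9, 307.4 and 279.2 CPM in young vehicle. The aged libraries of Ndufv1 lay within a few CPM of each other, and the rise of 0.26 (SE 0.0738, adjusted p = 0.04697) was lost in 12 of 22 other settings, including each fit without 1 library (adjusted p up to 0.1719). The call of Ndufv2 was lost without young vehicle replicate 3 or aged vehicle replicate 3 (adjusted p up to 0.06015).

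In the core of the Q module, edgeR called 0 of 4 genes with age, while 3 had an unadjusted p under 0.05 and DESeq2 and limma-voom each called 1. Ndufs8, which carries iron-sulphur clusters, had 132.3, 137.2 and 140.9 CPM in aged vehicle against 102.6, 121.6 and 102.9 CPM in young vehicle. These groups did not overlap, yet the change of 0.33 (SE 0.0967) had an adjusted p of 0.05659, and it was called in 12 of 22 other settings. Ndufs7, the site of the last cluster before ubiquinone, had 288.6, 279.1 and 289.4 CPM in aged vehicle against 230.5, 257.8 and 231.2 CPM in young vehicle, with a change of 0.25 (adjusted p = 0.08401). Ndufs3 had 201.1, 193.4 and 201.1 CPM in aged vehicle against 162.6, 185.4 and 162.5 CPM in young vehicle, with a change of 0.22 (adjusted p = 0.09228). In these 3 genes the aged libraries were above the young ones without reaching the threshold.

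Among the accessory genes, 5 of 30 rose with age, 2 of the N and Q modules, 0 of the proximal membrane arm and 3 of the distal arm. The proximal arm had 5 of its 9 genes at an unadjusted p under 0.05, and DESeq2 and limma-voom also called 0 of them. Ndufb5, a distal arm subunit, had the largest change of the members. It had 169, 192.9 and 194.7 CPM in aged vehicle against 105.8, 139 and 125.8 CPM in young vehicle, groups well apart, with a log2 fold change of 0.59 (SE 0.108, adjusted p = 0.005479). Ndufs4, an N module subunit whose loss in humans causes Leigh syndrome, had 130.7, 139.5 and 147.2 CPM in aged vehicle against 95.05, 108.1 and 95.5 CPM in young vehicle. Its groups did not overlap, and it rose by 0.48 (SE 0.0802, adjusted p = 0.002948). Also called were Ndufb9 at 0.42, Ndufb1 at 0.41 and Ndufa6 at 0.37. All 3 calls were lost without young vehicle replicate 3 or aged vehicle replicate 3. Without aged vehicle replicate 2, Ndufb9 and Ndufb1 were lost too, as was Ndufb9 without young vehicle replicate 1 and Ndufb1 without young vehicle replicate 2. The highest adjusted p without a library was 0.08257 for Ndufb9, 0.1408 for Ndufb1 and 0.06116 for Ndufa6. Ndufb9 and Ndufa6 encode proteins that bind the acyl carrier protein made from Ndufab1.

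Ndufa4 rose with age too. It had 355.8, 393.4 and 404.6 CPM in aged vehicle against 262.2, 302.6 and 248.9 CPM in young vehicle, with no overlap and a log2 fold change of 0.50 (SE 0.089, adjusted p = 0.004408). Ndufa4, Ndufb5, Ndufs1 and Ndufs4 were called higher in aged vehicle in all 22 other settings, a number that leaves out stricter thresholds, under which 1 member was called at 1.5-fold or more. Ndufab1, the mitochondrial acyl carrier protein, had 72.43, 79.48 and 84.63 CPM in aged vehicle against 67.04, 71.92 and 66.79 CPM in young vehicle. Its libraries did not overlap, and its change of 0.20 was not called (adjusted p = 0.1597). Ndufv3, a small N module subunit, had 77, 82.43 and 80.47 CPM in aged vehicle against 72.91, 82.26 and 61.17 CPM in young vehicle, overlapping values with a change of 0.15 (adjusted p = 0.4493).

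The number of members called higher with age depended on single libraries. It was 4 without young vehicle replicate 3, 4 without aged vehicle replicate 3 and 6 without aged vehicle replicate 2, against 9 with all libraries. Markers of fibre and cell types also differed in this comparison, where 8.6% of all genes tested were called, 4.32% higher and 4.28% lower. Slow fibre markers fell in 7 of 8, with sums of 113.7 to 158.7 CPM in aged vehicle and 1523 to 2126 CPM in young vehicle. Among them the preset gene Myh7 had a log2 fold change of -6.81 (adjusted p = 0.0001271). Endothelial markers rose in 4 of 10, with sums of 730.7 to 767.5 CPM in aged vehicle and 482.6 to 499 CPM in young vehicle. Red blood cell markers rose in 5 of 7 and 2 were not called, with log2 fold changes of -2.84 to 2.09 over the list. Their sums were 1159 to 2130 CPM in aged vehicle and 240 to 515.3 CPM in young vehicle. Schwann cell markers fell in 3 of 7, with sums of 110.2 to 122 CPM in aged vehicle and 222.4 to 424.5 CPM in young vehicle. Adipocyte markers fell in 3 of 8, although their sums overlapped, at 502.6 to 517.4 CPM in aged vehicle and 468.6 to 633 CPM in young vehicle. Fibroblast markers fell in 2 of 8 and rose in 1, with overlapping sums of 843.6 to 1085 CPM in aged vehicle and 1017 to 2163 CPM in young vehicle. Skeletal muscle markers fell in 4 of 10 and rose in 2. Their part in the changes of the members was not tested.

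**Figure D2:**
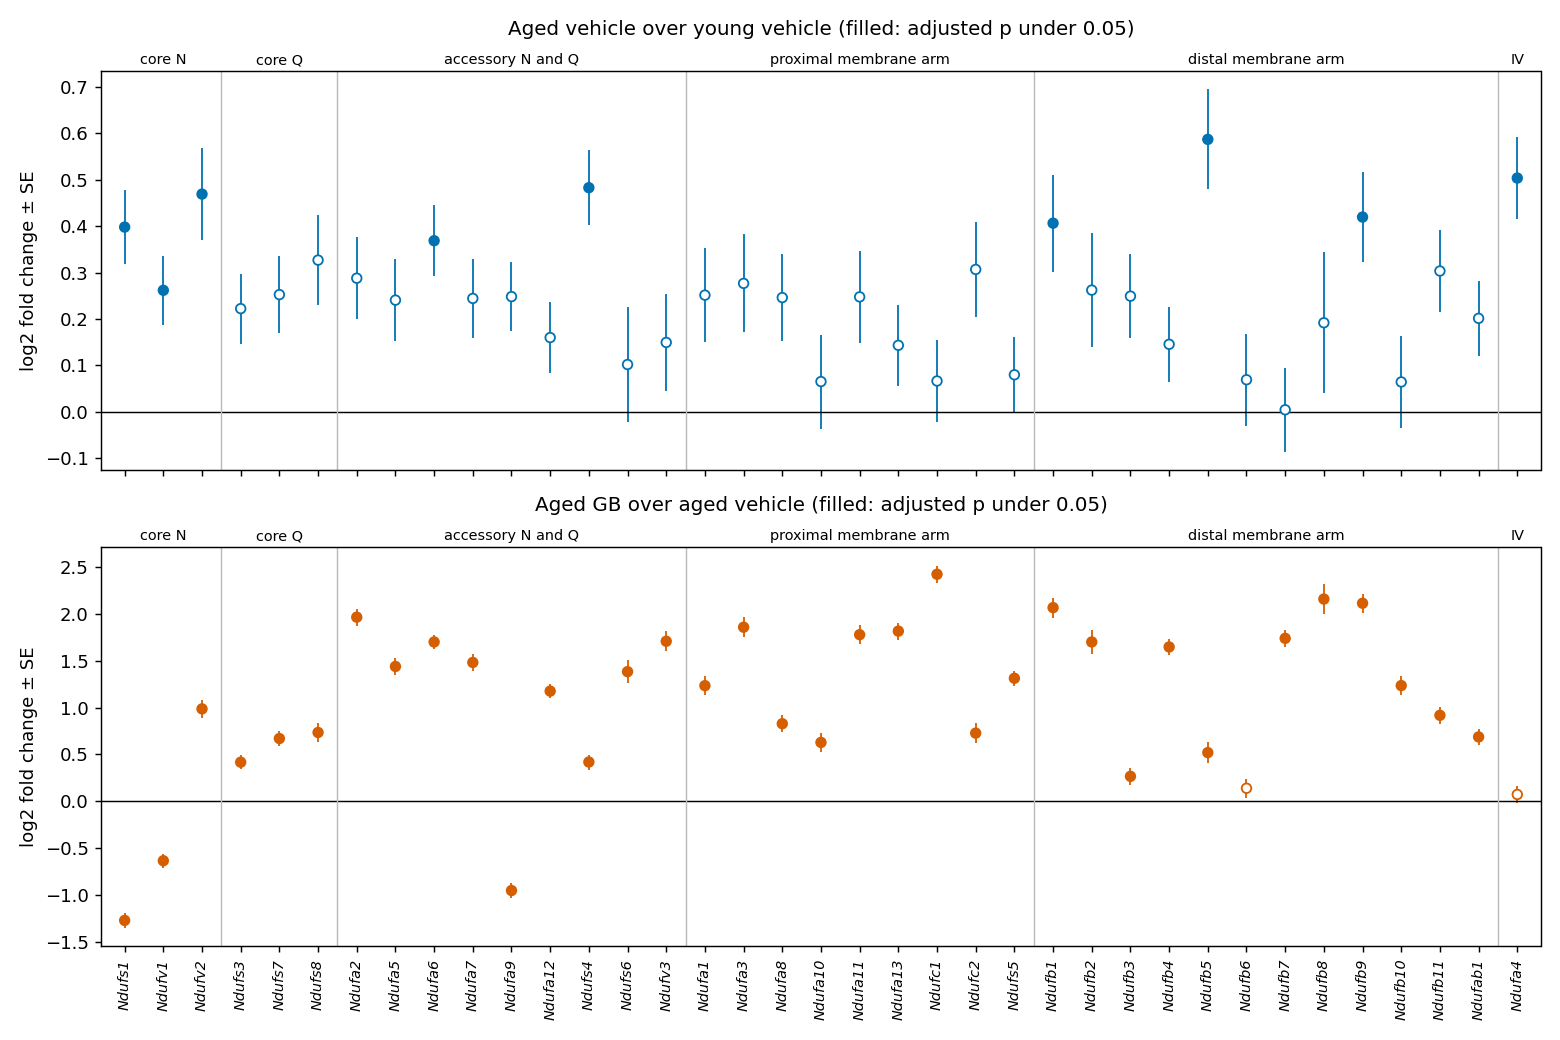
Log2 fold changes ± SE of 37 of the genes, aged vehicle over young vehicle above and aged GB over aged vehicle below, on different vertical scales, with filled points for an adjusted p under 0.05. The upper values lie between 0.00 and 0.59 and the lower ones between -1.27 and 2.43.

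The second comparison asked what GB changed in aged muscle, aged GB over aged vehicle. On the TMM scale 32 members rose, 3 fell and 3 were not called, where 53.2% of all genes tested were called, 24.4% higher and 28.8% lower. The median log2 fold change of the members was 1.21 and that of all genes tested was -0.05. The libraries of the groups did not overlap in any of the 35 called members. Groups without overlap were found in 59.7% of genes tested, all higher in 27.3% and all lower in 32.5%. The counts of members depended on scaling and on transcript length. Scaling by library totals alone gave 23 members higher and 7 lower, and an offset for transcript length fitted on protein-coding genes gave 18 higher and 14 lower.

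The largest single rises were those of accessory genes of the membrane arm, but accessory genes of the N and Q modules had as high a median, 1.44. The proximal arm had a median of 1.31. All 9 of the proximal arm rose, with changes of 0.63 to 2.43, and 11 of the 12 of the distal arm rose, with a median over the 12 of 1.44. With library totals alone 7 of the 9 proximal genes were called higher and 0 lower, and 8 of the 12 distal genes were higher and 2 lower. The offset for length fitted on protein-coding genes gave 5 higher and 3 lower in the proximal arm and 7 higher and 3 lower in the distal arm. Ndufc1, a small proximal arm subunit, had 589, 581.9 and 528.1 CPM with GB against 94.56, 114.3 and 107.2 CPM in aged vehicle. The GB libraries lay far above all others, and the log2 fold change was 2.43 (SE 0.093, adjusted p = 1.229e-09). Ndufb9 had 466.5, 499.9 and 416.1 CPM with GB against 96.42, 112.4 and 110 CPM in aged vehicle, a rise of 2.12 (SE 0.1, adjusted p = 5.952e-09). Ndufb8, a distal arm subunit, had 44.75, 51.86 and 39.89 CPM with GB against 8.937, 11.53 and 10.05 CPM in aged vehicle. The GB libraries were again above all others, with a rise of 2.16 (SE 0.156, adjusted p = 1.868e-07). In both vehicle groups Ndufb8 was the lowest member per kilobase after Ndufb2, at 14.96 CPM per kilobase in aged and 13.11 in young vehicle. In Ndufb8 19.7% of the principal transcript is shared with the same-strand gene Gm20538, which had 0 counts in every library. How shared reads were counted is not given in the sources used here, so the level of Ndufb8 is less certain.

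The smaller changes of the distal arm were those of Ndufb5 and Ndufb3. Ndufb5 had 270.1, 286.6 and 241.5 CPM with GB against 169, 192.9 and 194.7 CPM in aged vehicle, without overlap, and rose by 0.52 (SE 0.108, adjusted p = 0.00137). With library totals alone Ndufb5 stood at -0.05 and was not called. Ndufb3 rose by 0.27 (adjusted p = 0.02618), a call lost without aged vehicle replicate 1 or 3 or GB replicate 1 or 2 (adjusted p up to 0.1219). Its direction turned with library totals, where Ndufb3 was called lower at -0.30 (adjusted p = 0.02406), and with each length offset, at -0.59 to -0.96. Ndufb6 was not called, at 0.14 (adjusted p = 0.2629), but was called lower with library totals, at -0.43 (adjusted p = 0.00552), and with each length offset, at -0.75 to -1.22. In Ndufb6 39.0% of the transcript is shared with the opposite-strand gene Smim27. Smim27 had 539 to 737 counts with GB and 101 to 130 counts in aged vehicle, and the use of strand in counting is not given in the sources used here. The acyl carrier protein gene Ndufab1 had 125.8, 131.1 and 124 CPM with GB against 72.43, 79.48 and 84.63 CPM in aged vehicle. All GB libraries of Ndufab1 were above the aged vehicle ones, and it rose by 0.69 (SE 0.0818, adjusted p = 1.548e-05). With library totals alone Ndufab1 stood at 0.12 and was not called (adjusted p = 0.2885), and it was called higher in the other 21 of 22 settings.

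In the N and Q modules 8 accessory genes rose and 1 fell. Ndufv3 had 249.7, 284.7 and 250.6 CPM with GB against 77, 82.43 and 80.47 CPM in aged vehicle, with groups far apart and a rise of 1.71 (SE 0.107, adjusted p = 5.658e-08). Ndufs4 rose by less, with 187.8, 183.9 and 186.3 CPM with GB against 130.7, 139.5 and 147.2 CPM in aged vehicle and a change of 0.42 (SE 0.0802, adjusted p = 0.000766). Its call was lost in 6 of 22 other settings. Ndufs4 had 0.04 with totals that leave out mitochondrially encoded genes, -0.15 with library totals, 0.17 with the length offset, with or without a replicate block, 0.04 with the offset on principal transcript length and 0.00 when that trend came from protein-coding genes (adjusted p up to 0.9964). Ndufa9, a Q module subunit at the joint with the membrane arm, went the other way. It had 98.6, 92.23 and 90.37 CPM with GB against 179, 177.8 and 188.2 CPM in aged vehicle, without overlap, and its change was -0.95 (SE 0.0759, adjusted p = 4.448e-07).

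The core of the N module split, with Ndufs1 and Ndufv1 lower and Ndufv2 higher. Ndufs1 had 173.5, 156.8 and 149.9 CPM with GB against 396.3, 371.4 and 393.7 CPM in aged vehicle. Every GB library was below every vehicle library of either age, and the log2 fold change of -1.27 (SE 0.0811, adjusted p = 6.431e-08) was the largest fall of the 38 members. Ndufv1 had 239, 221.3 and 212.1 CPM with GB against 350.4, 346.8 and 347.8 CPM in aged vehicle, and its change was -0.64 (SE 0.0741, adjusted p = 1.28e-05). Ndufv2 had 617.8, 601.1 and 528.7 CPM with GB against 289.2, 281.8 and 310.7 CPM in aged vehicle, without overlap, and rose by 0.99 (SE 0.0995, adjusted p = 3.617e-06). The principal transcripts of Ndufv1 and Ndufv2 are of like length, 1661 and 1697 bases.

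In the core of the Q module the changes were smaller. Ndufs8 had 253.7, 224.3 and 204.9 CPM with GB against 132.3, 137.2 and 140.9 CPM in aged vehicle, a change of 0.73 (SE 0.0971, adjusted p = 3.831e-05). Ndufs7 had 498.1, 451.7 and 414 CPM with GB against 288.6, 279.1 and 289.4 CPM in aged vehicle, a change of 0.67 (SE 0.0836, adjusted p = 2.335e-05). Both had GB libraries above all aged vehicle libraries. Ndufs3 had 270.8, 264.4 and 260 CPM with GB against 201.1, 193.4 and 201.1 CPM in aged vehicle, also without overlap, and rose by 0.42 (SE 0.0755, adjusted p = 0.0005029). These calls changed with the scale. With library totals alone Ndufs8 had 0.17, Ndufs7 0.10 and Ndufs3 -0.15, and none of the 3 was called (adjusted p = 0.1906, 0.3367 and 0.112). With the length offset they had 0.01, 0.09 and -0.00 and were not called either (adjusted p = 0.9107, 0.2944 and 0.9787).

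Ndufa4, the gene assigned to complex IV, did not follow most members. It had 421.8, 409 and 382.2 CPM with GB against 355.8, 393.4 and 404.6 CPM in aged vehicle, overlapping values with a change of 0.07 (adjusted p = 0.5231). Its paralog Ndufa4l2 also was not called, at 0.06 (adjusted p = 0.8335). Ndufa4 was called lower with library totals, at -0.50, with totals that leave out mitochondrially encoded genes, at -0.31, and with each length offset, at -0.62 to -1.36.

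**Figure D3:**
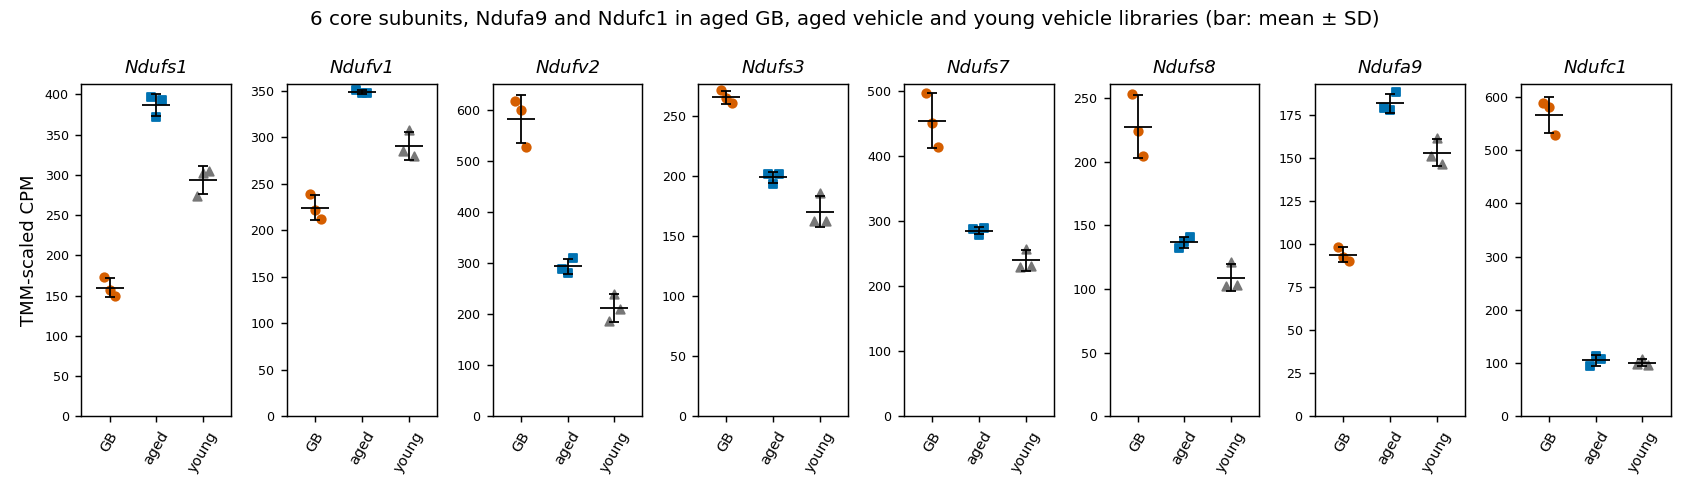
TMM-scaled CPM of 6 core genes, Ndufa9 and Ndufc1, with points for the 3 libraries of each group and bars for mean ± SD. Ndufs1, Ndufv1 and Ndufa9 are lowest with GB, and Ndufc1 averages 566.3 CPM with GB against 105.4 CPM in aged vehicle.

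The balance between core and accessory genes differed within each library, a ratio that no scaling of libraries can move. Summed CPM of the 7 core genes over that of the 30 accessory genes was 0.2661 to 0.2888 in the GB libraries, 0.6093 to 0.6657 in the aged vehicle libraries and 0.5888 to 0.6421 in the young vehicle libraries. The GB values lay below all vehicle values, and the ranges of the vehicle groups overlapped. Principal transcripts of the core genes were 983 to 2661 bases long, while most accessory ones were under 1000 bases. Core against accessory was thus also longer against shorter, and the ratio was not adjusted for length. The core sum was 2412 ± 168.4 CPM with GB and 2202 ± 28.35 CPM in aged vehicle, while the accessory sum was 8793 ± 427.7 CPM with GB and 3493 ± 149.5 CPM in aged vehicle (SD, n = 3 each). The core sum ran the other way without TMM scaling. As a share of all counts it was 0.1702 to 0.2043% with GB and 0.2414 to 0.259% in aged vehicle, and as a share of counts of nuclear genes it was 0.2303 to 0.27% with GB and 0.2804 to 0.3058% in aged vehicle. The accessory sum was higher with GB on these scales too, at 0.6355 to 0.7074% of all counts with GB and 0.3627 to 0.4188% in aged vehicle.

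Transcript length ran along with the GB changes. Across the 38 members, which share libraries, Spearman's correlation of the log2 fold change with the length of the principal transcript was -0.39, and across 14195 protein-coding genes tested it was -0.51. In the age comparison the same values were 0.03 and 0.02. Among the 13 members of up to 700 bases the median GB change was 1.48, close to the 1.35 of 280 protein-coding genes of that length. From there to 1000 bases it was 1.24 in 9 members and 1.21 in 543 genes, and from 1000 to 1500 bases it was 0.73 in 7 members and 0.68 in 1361 genes. Above 1500 bases the 9 members had a median of 0.63 and the 12011 genes a median of -0.20. The 2 sides of this last bin differ in length. Most of its members were 2661 bases or shorter, while its genes ran up to a length class with a median of 9660 bases. Classes of protein-coding genes with median lengths of 1595, 1814 and 2674 bases had median changes of 0.46, 0.35 and 0.02. The bins of members are small, and none of these values was tested.

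**Figure D4:**
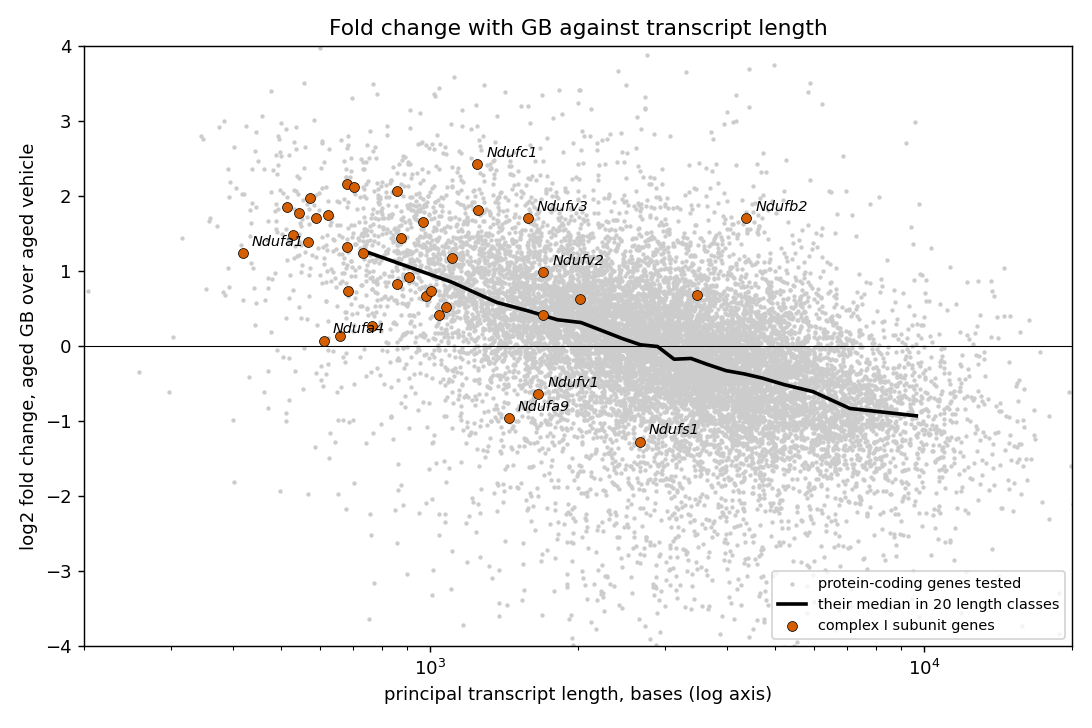
Log2 fold change of aged GB over aged vehicle against the length of the principal transcript on a log axis, for protein-coding genes tested (grey, line for the median in 20 length classes) and 37 complex I genes (orange). Many short members lie around the line, Ndufc1, Ndufv3 and Ndufb2 lie above it, and Ndufs1, Ndufv1, Ndufa9 and Ndufa4 lie below it.

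When each library's trend with transcript length in protein-coding genes was used as an offset, an alternative chosen after seeing the data, the median of the members was -0.01 and that of all genes tested was -0.04. Of the 35 members called on the TMM scale, 21 were called in the same direction. The largest rises there were those of Ndufb2 at 2.08, Ndufc1 at 1.69 (adjusted p = 9.388e-09), Ndufv3 at 1.23, Ndufa13 at 1.08 and Ndufb1 at 0.96. Ndufs1 stood at -1.30, Ndufa9 at -1.53 and Ndufv1 at -1.08 in that fit. Ndufs3, Ndufs7, Ndufs8 and Ndufb5 were called lower there, at -0.51, -0.32, -0.24 and -0.38. Over all 22 alternative settings, 16 members were called higher in each, among them Ndufc1, Ndufb8, Ndufb9, Ndufv2 and Ndufv3. Ndufs1, Ndufv1 and Ndufa9 were called lower in each of the 22. Another 8 members were called higher under some settings and lower under others.

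**Figure D5:**
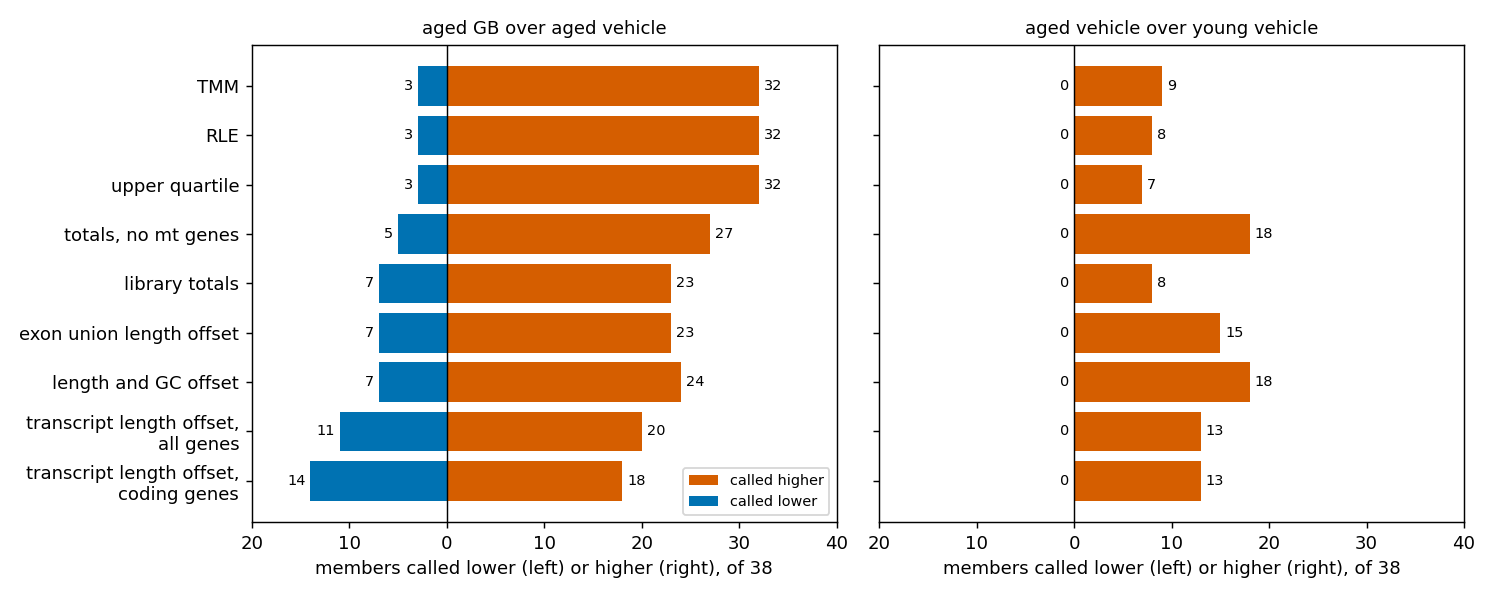
Number of the 38 complex I genes called higher (right of 0) or lower (left of 0) at an adjusted p under 0.05, under 5 scalings and 4 offsets, for aged GB over aged vehicle and for aged vehicle over young vehicle. The GB split runs from 32 higher and 3 lower with TMM to 18 higher and 14 lower with the coding-gene length offset, and in the age comparison 7 to 18 are higher and 0 lower.

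Other markers were also compared between aged GB and aged vehicle, where 53.2% of all genes tested were called, 24.4% higher and 28.8% lower. Slow fibre markers rose in 7 of 8, with sums of 1222 to 1553 CPM with GB and 113.7 to 158.7 CPM in aged vehicle. Among them Myh7 had a log2 fold change of 3.23 (adjusted p = 0.0001917). Adipocyte markers rose in 6 of 8, with sums of 888.7 to 1146 CPM with GB and 502.6 to 517.4 CPM in aged vehicle. Endothelial markers fell in 5 of 10 and rose in 2, with sums of 446.8 to 570.4 CPM with GB and 730.7 to 767.5 CPM in aged vehicle. Fibroblast markers fell in 6 of 8 and rose in 1, with sums of 572.7 to 743.2 CPM with GB and 843.6 to 1085 CPM in aged vehicle. Red blood cell markers fell in 4 of 7 and 3 were not called, with log2 fold changes of -3.00 to 1.71 over the list. Their sums were 687.5 to 782.5 CPM with GB and 1159 to 2130 CPM in aged vehicle. Schwann cell markers rose in 4 of 7, with sums of 156.9 to 258.6 CPM with GB and 110.2 to 122 CPM in aged vehicle. Macrophage markers fell in 3 of 10 and rose in 1. Their sums overlapped, at 170.9 to 202 CPM with GB and 195.1 to 233.2 CPM in aged vehicle. Skeletal muscle markers rose in 6 of 10 and fell in 2, with a median log2 fold change of 1.17 and a range of -4.20 to 1.76. The preset marker Ckm was not called, at -0.12 (adjusted p = 0.4452). The part of these populations, of depth and of the mitochondrial share in the changes of the members was not tested.

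Aged GB was also set against young vehicle, a comparison that shares its libraries with both others. There 33 members rose and 3 fell, where 53.6% of all genes tested were called, 24.7% higher and 29% lower, with a median of 1.36 for the members and -0.09 for all genes tested. Ndufs1, at 160.1 ± 12.1 CPM with GB and 293.8 ± 17.04 CPM in young vehicle (SD, n = 3 each), had the largest fall, of -0.88. Ndufb9, at 460.8 ± 42.17 CPM with GB and 79.46 ± 6.901 CPM in young vehicle (SD, n = 3 each), had the largest rise, of 2.54. Over all genes tested, 60.7% had groups without overlap, 27.5% all higher and 33.2% all lower. Ndufb6 at 0.21 was not called. Ndufa4, not called against aged vehicle, rose by 0.58 over young vehicle. The coding-gene length offset gave 19 members higher and 10 lower with a median of 0.24.

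The partners of the nuclear genes were examined in the same fits. The mitochondrially encoded core subunits, whose reads may be shared with nuclear copies, rose with age in 4 of 7. Over all genes tested, 4.32% were called higher with age. mt-Nd1 rose by 0.78, mt-Nd4 by 0.65, mt-Nd2 by 0.61 and mt-Nd5 by 0.48 in aged over young vehicle, while mt-Nd6 had 0.42 (adjusted p = 0.05589), mt-Nd3 1.54 (adjusted p = 0.1488) and mt-Nd4l 1.66 (adjusted p = 0.248). With GB 6 of 7 rose over aged vehicle, where 24.4% of all genes tested were called higher. mt-Nd3 had 2.76, mt-Nd1 1.83, mt-Nd4 1.77, mt-Nd6 1.37, mt-Nd2 1.24 and mt-Nd5 0.37, and mt-Nd4l had -0.61 (adjusted p = 0.5128). The mt-Nd5 call was lost with age in 5 of the 6 fits without 1 library (adjusted p up to 0.1187), and with GB without aged vehicle replicate 2 or 3 or GB replicate 2 or 3 (adjusted p up to 0.1282). With GB the length and GC offset left mt-Nd2 at 0.25, mt-Nd3 at 1.38 and mt-Nd6 at 0.10, none of them called (adjusted p up to 0.5912). Neither offset on principal transcript length called mt-Nd3, at 1.55 and 0.89, or mt-Nd6, at 0.23 and -0.20. The mt-Nd5 call was lost with both of these offsets too, and without a filter on low counts. Its direction turned with library totals and with the other length offsets, down to -0.31. Summed CPM of these 7 genes was 155200 to 165500 with GB, 54640 to 60420 in the aged vehicle libraries and 32870 to 42340 in the young vehicle libraries.

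Assembly factors, which build the complex without being part of it, were tested for 17 of 18 genes. With age edgeR called 0 of them, where 8.6% of all genes tested were called. In edgeR 0 had an unadjusted p under 0.05, and DESeq2 and limma-voom called 0, with a median change of 0.02. With GB 9 rose and 3 fell on the TMM scale, with a median of 0.46, where 24.4% of all genes tested were called higher and 28.8% lower. Scaling by library totals gave 5 higher and 8 lower and a median of -0.12. Ndufaf8 had the largest rise, with 91.32, 80.22 and 62.63 CPM with GB against 16.99, 16.25 and 18.66 CPM in aged vehicle and a change of 2.17 (adjusted p = 1.4e-07). Its principal transcript is short, at 781 bases. Across 22 other settings the change of Ndufaf8 ran from 0.96 to 2.30 and was called in each. Acad9, an acyl-CoA dehydrogenase that also assembles the membrane arm, had 6.325, 5.912 and 4.894 CPM with GB against 29.08, 26.27 and 26.16 CPM in aged vehicle. All its GB libraries were lower, with a change of -2.25 (adjusted p = 2.119e-08).

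Of 14 regulators of mitochondrial gene expression, 1 rose and 0 fell with age, and DESeq2 and limma-voom gave the same counts. Over all genes tested, edgeR called 8.6% with age, 4.32% higher and 4.28% lower. The regulator called was Ppargc1a, a coactivator of respiratory chain genes, at 0.69 (adjusted p = 0.02004). Its call was lost without young vehicle replicate 2 (adjusted p = 0.09101) or aged vehicle replicate 2 (0.07875) or 3 (0.06373). Across the 22 other settings its adjusted p ran from 0.001096 to 0.09101. With GB 0 regulators rose and 7 fell in edgeR, DESeq2 and limma-voom alike, with 7 at an unadjusted p under 0.05 in edgeR. Over all genes tested, edgeR called 24.4% higher and 28.8% lower with GB. Library totals alone gave 0 higher and 13 lower, and the coding-gene length offset gave 1 higher and 5 lower. Ppargc1a had 16.75, 28.42 and 26.77 CPM with GB against 40.16, 45.01 and 41.44 CPM in aged vehicle, without overlap, a change of -0.82 (adjusted p = 0.001118), not called with either offset on principal transcript length, at -0.12. Ppargc1b, a related coactivator, had the largest fall of the list, at -3.51, Gabpa, which binds ETS motifs, had -0.94, and Tfam, which packages and transcribes mitochondrial DNA, had -0.43, a call lost with the length and GC offset and with both offsets on principal transcript length. Nrf1 at -0.19 (adjusted p = 0.2499) and Esrra at 0.06 (adjusted p = 0.5509) were not called.

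The other respiratory complexes gave these counts for their nuclear genes. With age 0 of 4 genes rose in complex II and 3 of 9 in complex III. In complex IV 6 of 13 rose and in complex V 7 of 15, and 0 fell in any of these complexes. Over all genes tested, 4.32% were called higher with age and 4.28% lower. The medians with age were 0.21, 0.25, 0.30 and 0.25, beside the 0.25 of the complex I genes. With GB, over aged vehicle, the medians were -0.42, 1.34, 0.92 and 1.00, beside 1.21 for the complex I genes. In complex II, which feeds electrons from succinate, DESeq2 and limma-voom each called 1 gene higher with age, as many as had an unadjusted p under 0.05 in edgeR. With GB all 3 tools called 0 genes of complex II higher and 2 lower, and 2 had an unadjusted p under 0.05. Over all genes tested, edgeR called 53.2% with GB, 24.4% higher and 28.8% lower. On the TMM scale, of the others, 6 rose and 2 fell in complex III, 12 rose and 1 fell in complex IV, and 11 rose and 2 fell in complex V. Library totals alone gave 0 higher and 3 lower in complex II, 5 and 4 in complex III, 8 and 1 in complex IV and 9 and 5 in complex V, with medians of -0.99, 0.77, 0.35 and 0.43. The complexes also differed in transcript length. Principal transcripts of complex II were 1142 bases in Sdhb, 1231 in Sdhd, 2900 in Sdha and 3171 in Sdhc. Those of complexes III to V ran from 360 bases in Cox8b to 4715 in Atp5g1, and most were shorter than any of complex II. None of the medians in this paragraph was adjusted for length. The differences between complexes, and the part of length in them, were not tested.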

How the data were processed

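RNA was measured by sequencing of libraries made from total RNA with an mRNA library kit, per the labels' protocols. The authors deposited a table of raw, whole-number counts for each gene and library, not normalized, and a gene length. FastQC, SAMtools, HISAT2 and DESeq2 are named in the submitters' processing notes, as are the genome builds GRCm39 and mm10. Not given in the sources used here are the counter, its use of strand and the build behind the counts. The length column equals the exon union of GENCODE M21 for all 38 members and 95% of genes found there by symbol. That union holds exons of retained-intron transcripts, so principal transcripts (protein coding, best APPRIS tag, then longest) were used for length. Reads may be split or lost where copies exist, as for Ndufa12, Ndufab1, Ndufs5, Ndufs6 and Ndufb4. In 4 members at least 20% of the principal transcript is shared with another gene's exons: Ndufb6, Ndufa13, Ndufb9 and Ndufb5.

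Groups came from the labels. No pair of replicates agreed within sampling noise, so each was kept as its own library. The test was edgeR 4.0.16 under R 4.3.3 (filterByExpr with minimum count 10 and minimum total 15, leaving 17534 genes, TMM factors, robust quasi-likelihood with a mean per group over all 9 libraries). P-values are two-sided and Benjamini-Hochberg adjusted over all genes tested. Genes under 0.05 were called. A standard error (SE) is the log2 fold change divided by the root of F. The fit was tested on simulated data with changes planted in the aged vehicle libraries alone and no trend with transcript length. That check does not cover the shifts seen in the GB libraries.

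Alternatives were other scalings and filters, DESeq2 1.42.0, limma-voom (limma 3.58.1), robust=FALSE, only the 2 groups compared, a replicate block, other thresholds, leaving out each library, and offsets for each library's lowess trend (span 0.3) with length, or length and GC content, known for 96.5% of genes tested. The 2 offsets on principal transcript length were chosen after seeing the data. The members, gene lists and tests were chosen with earlier results of these data known. Counts cover all 38 members, and 1 member is not reported here by itself. Members named with every library are the other core genes, Ndufa4, Ndufab1, Ndufv3 and the 3 largest called rises and falls in each of the first 2 comparisons. From other lists, the largest called rise and fall, the mitochondrial subunits and 8 preset genes are named. Members named by fold change alone describe a role group, and Smim27 and Gm20538 were named after their values were seen. Precision is limited by 3 libraries per group.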

Additional observations from a re-analysis of the deposited data

How the results depend on the processing

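With 3 libraries per group, depth limits little for genes at these levels, and the limits are the scale, transcript length and single libraries. For members higher in aged over young vehicle, 9 were called by default, and 0 were called lower under any alternative. The count was 18 with library totals without mitochondrially encoded genes, 14 with only the 2 groups compared, 4 at an adjusted p under 0.01, 1 with at least 1.5-fold, 15 with the length offset, 18 with the length and GC offset, and 4 to 9 without 1 library. All members called under GB, over aged vehicle, numbered 30 to 35 under the 22 alternative fits, but the split moved from 32 higher and 3 lower to 23 and 7 with library totals, 27 and 5 with totals without mitochondrially encoded genes, 23 and 7 with the length offset, 24 and 7 with length and GC, 20 and 11 with principal transcript length, and 18 and 14 when that trend came from protein-coding genes. Library totals moved the median of all genes tested to -0.62.

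Of the 38 members, 6 turned direction under GB with library totals, 3 with totals without mitochondrially encoded genes, 6 with the length offset, 8 with length and GC, 9 with principal transcript length and 15 when that trend came from protein-coding genes. Directions that turned are listed next, as log2 fold changes, for the genes named with every library and the preset ones, together with Ndufb3 and Ndufb6, and the cause was not tested. For aged GB over aged vehicle, library totals gave Ndufs3 -0.15, Ndufa4 -0.50, Ndufb5 -0.05, Ndufs4 -0.15, Ndufb3 -0.30, Ndufb6 -0.43, mt-Nd5 -0.20, Esrra -0.51 and Ndufa4l2 -0.51. Totals without mitochondrially encoded genes gave Ndufa4 -0.31, Ndufb3 -0.11, Ndufb6 -0.24, Esrra -0.32 and Ndufa4l2 -0.32. Without a filter on low counts, Esrra and Ndufa4l2 had -0.01. The length offset gave Ndufs3 -0.00, Ndufa4 -0.62, Ndufb3 -0.64, Ndufb6 -0.82, mt-Nd5 -0.16, Nrf1 0.43 and Ndufa4l2 -0.73, and with the replicate block as well the values were the same except for mt-Nd5 at -0.18. The length and GC offset gave Ndufs3 -0.04, Ndufs7 -0.07, Ndufs8 -0.05, Ndufa4 -0.65, Ndufb3 -0.59, Ndufb6 -0.75, mt-Nd5 -0.31, Nrf1 0.48 and Ndufa4l2 -0.92. Principal transcript length gave Ndufs3 -0.39, Ndufs7 -0.18, Ndufs8 -0.10, Ndufa4 -1.01, Ndufb3 -0.72, Ndufb6 -0.92, Ndufb5 -0.26, Esrra -0.09 and Ndufa4l2 -0.83. With the trend from protein-coding genes the median of the members was -0.01, Ndufs3 had -0.51, Ndufs7 -0.32, Ndufs8 -0.24, Ndufa4 -1.36, Ndufb3 -0.96, Ndufb6 -1.22, Ndufb5 -0.38, mt-Nd6 -0.20, Esrra -0.12 and Ndufa4l2 -0.99.

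Leaving out each library gave a range of -0.15 to 0.25 for Ndufa4l2, -0.00 to 0.09 for Esrra and -0.24 to 0.01 for Ckm under GB, over aged vehicle. For aged over young vehicle the ranges were -0.01 to 0.04 for Esrra, -0.10 to 0.02 for Tfam and -0.08 to 0.29 for Ppargc1b. In that comparison upper-quartile factors gave Esrra -0.02, and totals without mitochondrially encoded genes gave Tfam 0.05. None of these 3 genes was called there by default. With the replicate number as a block, 8 members were called for aged over young vehicle, 35 for aged GB over aged vehicle and 36 for aged GB over young vehicle, against 9, 35 and 36 without it. Libraries of the same number deviated from their group means with correlations of -0.028 to 0.057. In each group, though, replicates 2 and 3 were the nearest pair, with a chi-square per gene between their counts of 16.62 to 18.68. Pairs with replicate 1 had 33.5 to 60.41. Whether libraries of the same number share more than a number was not tested.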
